A study of Acacia koa with 4 samples.

Results

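Phytochromes, the ubiquitin ligase COP1 and proteins that act with phytochromes were followed in 8 transcripts of Acacia koa, a Hawaiian tree of the legume family, out of 4000 transcripts on the array. The 8 were taken by identifier: phytochrome A-1 (A11378), phytochrome B (A115261 and A15473), COP1 (A14078 and A239196), a phytochrome A-associated F-box protein (A23822) and phytochrome kinase substrate 1-like proteins (A176391 and A23258). Their names are the descriptions of the most similar proteins given with the array data, and the names were not checked against sequence. The array held 6 further transcripts described as phytochrome or COP1, which are given beside them. The study compared stressed seedlings, whose stems were bent by hand towards the cardinal directions without wounding, with unstressed seedlings that were not bent. The question was which RNA levels respond to mechanical stress. Each group had 2 biological replicates, each a pool of about 20 whole seedlings on 1 array. Genotype, age, light conditions, the hour of harvest and the time from bending to freezing were not stated in the labels. Whole seedlings were ground, so a lower value can come from less RNA per cell or from fewer cells of a type, and these cannot be told apart.

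Phytochromes are the plant photoreceptors of red and far-red light. Light turns them into an active form that enters the nucleus, where it leads to the breakdown of factors that keep seedlings in their dark form. Phytochrome A acts in far-red and very dim light, and phytochrome B is the main receptor of red light and of shade. COP1 works in the dark: it is the substrate-binding part of a ubiquitin ligase that marks light-promoting transcription factors for breakdown, and active photoreceptors hold it back. In Arabidopsis the F-box protein that acts with phytochrome A dampens its signal, and phytochrome kinase substrate 1 is a cytosolic protein that phytochrome phosphorylates. Light and mechanical stimuli both set the rate of stem elongation.

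The 4 arrays had median RMA intensities of 981 and 1010 in unstressed and 991 and 1018 in stressed pools. Over all 4000 transcripts, limma called 38 (0.95%) at an adjusted p under 0.05, 37 of them higher (0.925%) and 1 lower (0.025%) in stressed pools. None of the 8 transcripts was among them, and 0 of 8 had an unadjusted limma p under 0.05, against 5.5% of all transcripts. Adjusted p-values of the 8 lay between 0.986 and 0.999. Of the 8, 7 had a lower geometric mean in stressed pools, and the sign was negative for 60.8% of all transcripts. Their median log2 difference was −0.20, against −0.041 over all transcripts. The log2 differences ran from −0.35 to 0.014. The groups did not overlap in 4 of the 8, as in 31.5% of all transcripts. In all 4 both stressed values lay below both unstressed values, which was so for 19.5% of all transcripts. No transcript of the 8 had both stressed values above both unstressed ones, which held for 12% of all transcripts.

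**Figure D1:**
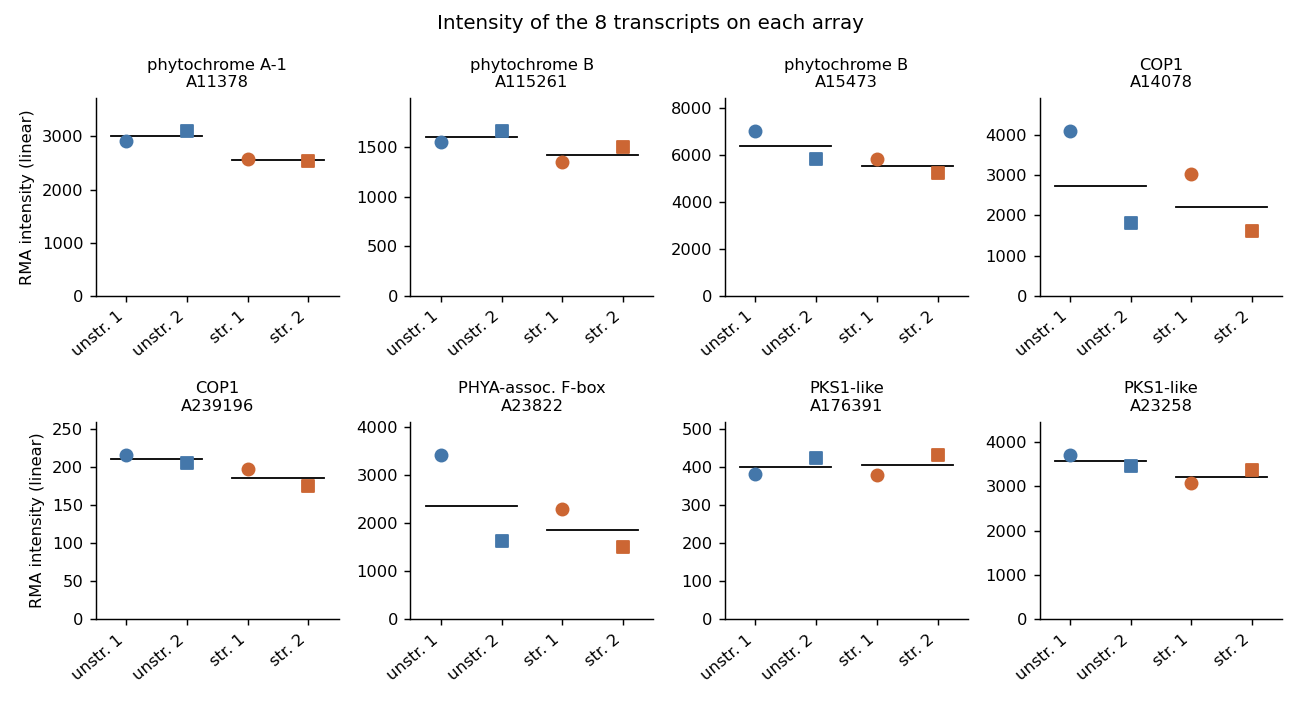
RMA intensity (linear scale, from 0) of the 8 transcripts on each array, with unstressed pools in blue, stressed pools in orange, circles for replicate 1, squares for replicate 2 and black lines for the geometric mean of each group. For COP1 (A14078) and the F-box transcript (A23822) both circles lie above both squares, and the 2 pools of a group lie farther apart than the 2 group means.

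Among the photoreceptors, phytochrome A-1 (A11378) had intensities of 2907 and 3105 in the unstressed pools and 2572 and 2546 in the stressed pools. The groups did not overlap, and the 2 stressed pools were nearly equal. The mean log2 level of the stressed pools was 11.32 ± 0.010 (SD, n = 2) and that of the unstressed pools 11.55 ± 0.067 (SD, n = 2), a difference of −0.23 (SE 0.12). Its unstressed level was 1.17-fold the stressed level, with a limma 95% confidence interval from 0.949 to 1.45, and it did not pass the threshold (limma adjusted p = 0.986). This was the smallest unadjusted p of the 8, and it came 398th in order of p over the array.

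Both phytochrome B transcripts had lower mean values in stressed pools, and neither passed the threshold (limma adjusted p = 0.986 for each). A15473 had intensities of 7036 and 5838 in unstressed and 5858 and 5220 in stressed pools. Its groups overlapped, since stressed replicate 1 lay just above unstressed replicate 2, and the unstressed pools differed by more (0.27 on the log2 scale) than the group means. A115261 was measured at 1552 and 1666 in unstressed and at 1356 and 1501 in stressed pools. Here the groups did not overlap, though stressed replicate 2 came close to unstressed replicate 1. The log2 differences were −0.21 (SE 0.15) for A15473 and −0.17 (SE 0.13) for A115261. In fold terms, unstressed over stressed, the intervals reached from 0.882 to 1.52 and from 0.896 to 1.42, so a level more than 1.52-fold lower or 1.13-fold higher in stressed pools lay outside the interval for A15473.

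A second transcript described as phytochrome A-1 (A466541) pointed the other way. It was at 363 and 280 in unstressed pools and at 432 and 434 in stressed pools. Both stressed values lay above both unstressed ones. The stressed level was 1.36-fold the unstressed level (1.01 to 1.82), which did not pass after adjustment over all transcripts (limma adjusted p = 0.873). Its mean log2 intensity was at the 24.7th percentile of the array, against the 77.0th for A11378, and no detection call was used. The difference between the 2 phytochrome A-1 transcripts was not tested. A pair of dimmer phytochrome B transcripts, A329635 and A356709, differed by −0.12 and −0.091 on the log2 scale, and their groups overlapped.

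**Figure D2:**
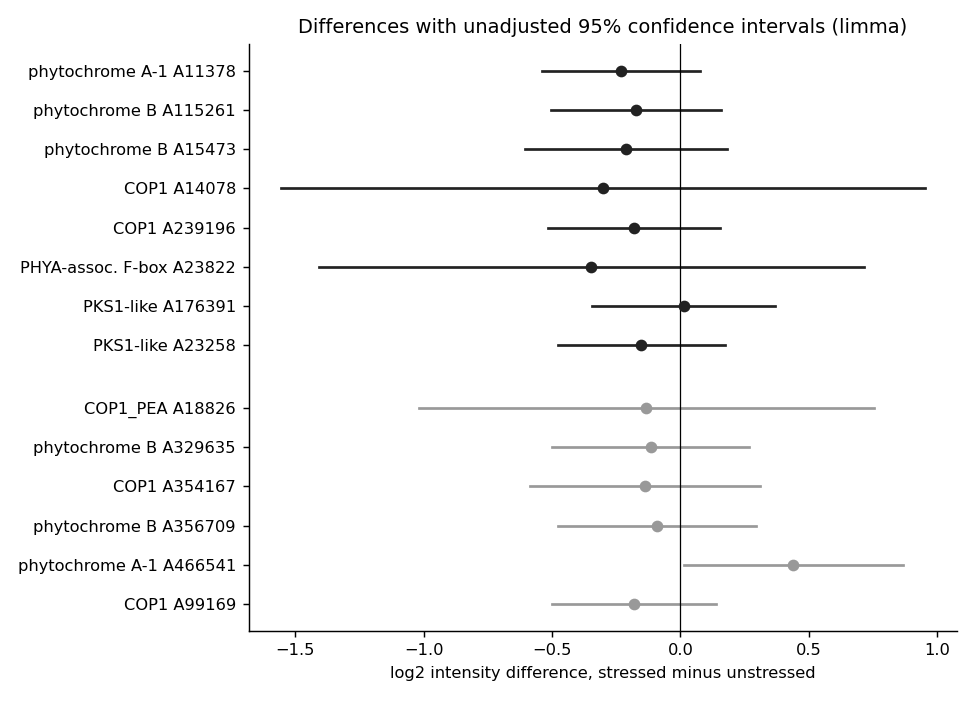
Log2 intensity difference (stressed minus unstressed, horizontal axis) for the 8 transcripts in black and the 6 further transcripts described as phytochrome or COP1 in grey, with points for limma's estimates and lines for unadjusted 95% confidence intervals. The intervals of COP1 (A14078) and the F-box transcript (A23822) are the widest of the 8, and all 8 include 0.

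The COP1 transcript A14078 was the member in which the pools differed most. It had intensities of 4097 in unstressed replicate 1 and 1818 in unstressed replicate 2. In the stressed pools it was at 3036 in replicate 1 and 1617 in replicate 2. Replicate 1 was thus the higher pool in each group, by 2.25-fold in the unstressed and 1.88-fold in the stressed pools, and the groups overlapped. The group means differed by −0.30 (SE 0.49) on the log2 scale, with 11.11 ± 0.64 (SD, n = 2) in the stressed and 11.41 ± 0.83 (SD, n = 2) in the unstressed pools. The unstressed level was 1.23-fold the stressed level with an interval from 0.516 to 2.94, which takes the gap between the pools of a group as error. Within each replicate number the stressed pool was the lower one. Its spread within groups was larger than that of 99.2% of all transcripts. Its log2 difference was 0.28 with unstressed replicate 1 left out and 0.15 with stressed replicate 2 left out, where the groups no longer held the same replicate numbers.

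The second COP1 transcript, A239196, was dim, at the 11.6th percentile of intensity. It was at 216 and 205 in unstressed and at 198 and 175 in stressed pools. All stressed values were below all unstressed values, by a small margin. The log2 difference was −0.18 (SE 0.13), and near the background a fold may be understated. A99169, also dim and described as COP1, had nearly the same difference (−0.18, SE 0.12), with values of 267 and 243 in unstressed and 230 and 220 in stressed pools. A354167 had a log2 difference of −0.14 with overlapping groups. The sixth of these further transcripts, A18826, carries the name of the COP1 protein of pea. It was at 2103 and 1189 in unstressed and at 1772 and 1172 in stressed pools. As in A14078, replicate 1 was the higher pool in both groups, by 1.77-fold and 1.51-fold. A18826 falls outside the rule for named transcripts and was chosen after its values were seen. Relatives of 1 family can bind each other's probes, so A14078 and A18826 may not be separate measurements.

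The phytochrome A-associated F-box transcript (A23822) followed the same course as A14078. Its intensities were 3427 and 1624 in unstressed and 2297 and 1498 in stressed pools. Replicate 1 was higher than replicate 2 by 2.11-fold in unstressed and 1.53-fold in stressed pools. The group means differed by −0.35 (SE 0.41) on the log2 scale, which was the largest difference of the 8 and smaller than the gap between the pools of either group. The unstressed level was 1.27-fold the stressed level (0.609 to 2.66, limma adjusted p = 0.986). Without unstressed replicate 1 the log2 difference was 0.19. Its spread within groups was above that of 98.6% of all transcripts.

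The phytochrome kinase substrate 1-like transcripts varied little. A23258 was at 3713 and 3447 in unstressed and at 3081 and 3361 in stressed pools. The groups did not overlap, with stressed replicate 2 just below unstressed replicate 2. Its log2 difference was −0.15 (SE 0.13), and the unstressed level was 1.11-fold the stressed level (0.887 to 1.39). A176391 was at 381 and 424 in unstressed and at 380 and 433 in stressed pools. This was the only one of the 8 with a positive difference, 0.014 (SE 0.14) on the log2 scale, with a stressed over unstressed interval from 0.788-fold to 1.29-fold. Its sign turned negative in 2 of the fits that left out 1 array, at −0.062 without unstressed replicate 1 and −0.080 without stressed replicate 2.

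The gap between pools was then set beside the other transcripts of the array. Transcripts were counted where replicate 1 was at least 1.5-fold above replicate 2 in both groups, which was so for 42 of 4000 (1.05%). The opposite, replicate 1 at least 1.5-fold below replicate 2 in both groups, held for 19 (0.475%). Of the 8, A14078 and A23822 were among the former and none among the latter. A23822 passed narrowly, at 1.53-fold in the stressed pools, and no other cut was counted. In the other 6, no gap in either group exceeded 1.21-fold, and within-group spreads lay between the 10.1th and the 53.6th percentile. The labels do not say what replicates of the same number share, and this count is a description with no test.

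**Figure D3:**
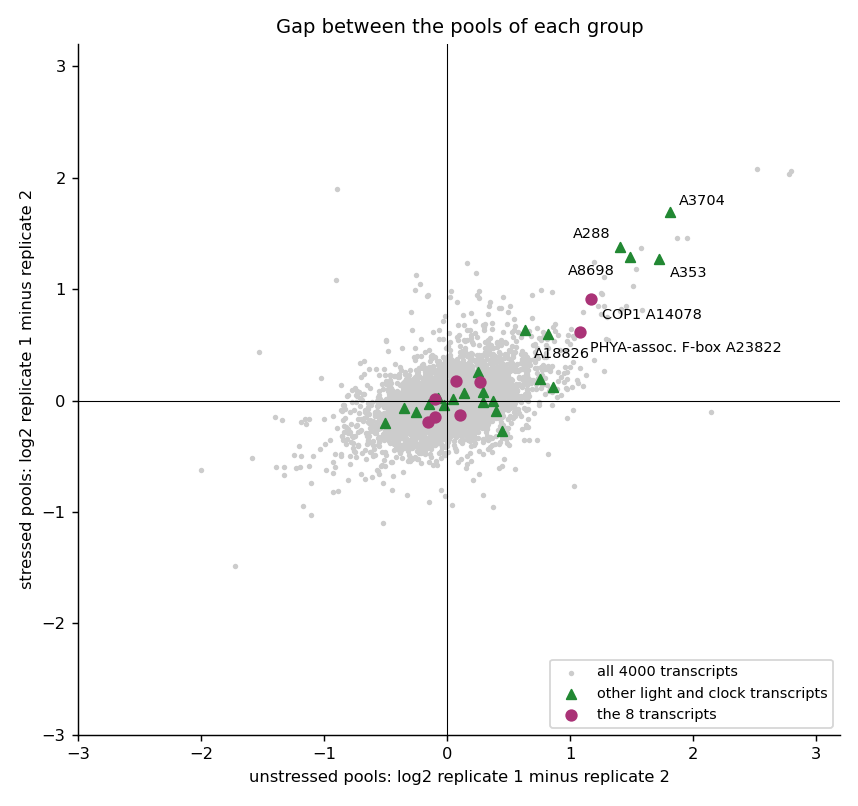
Log2 difference of replicate 1 minus replicate 2 in the unstressed pools (horizontal axis) and in the stressed pools (vertical axis), for all 4000 transcripts in grey, the 8 transcripts in purple and 22 other transcripts of the light and clock lists in green. COP1 (A14078) and the F-box transcript (A23822) lie at the upper right with the clock transcripts A353, A3704 and A8698 and the early light induced transcript A288, while the other 6 lie near the centre.

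Profiles over the 4 arrays were compared after subtracting each transcript's mean log2 value, with the root mean square distance as the measure. Distances are on the log2 scale, over 4 arrays only, and many transcripts lie close together. The transcripts nearest to A14078 were a white-brown complex ABC transporter (A16380, distance 0.046) and a serine/threonine protein kinase (A19991, distance 0.047). Nearest to A23822 were the transcription factor MYB109 (A18340, 0.024) and a protein phosphatase 1 regulatory subunit (A17227, 0.025). A14078 and A23822 lay 0.11 apart, and each was among the 10 transcripts nearest to the other out of 3999. The phytochrome B transcript A15473 was nearest to a protein kinase (A54917, 0.012) and an NADPH:P450 reductase (A348666, 0.013). Between transcripts of the same name, A14078 and A239196 were 0.47 apart and A15473 and A115261 0.17. A18826, also named COP1, was 0.19 from A14078, the 28th nearest, and 0.14 from A23822, the 23rd nearest.

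The wider light pathway was taken from search terms on the descriptions, in 5 lists with 30 transcripts, 8 of them the members. By limma 0 of 30 were called, in either direction, beside 0.95% of all transcripts. An unadjusted limma p under 0.05 was found for 1 (A466541), beside 5.5% of all transcripts. The differences were negative for 25, 7 of them members, and positive for 5, while 60.8% of all transcripts were negative. The median log2 difference of the 30 was −0.13, against −0.041 over all transcripts. Besides phytochromes, the light perception list of 11 held 2 transcripts described as bacteriophytochrome, with log2 differences of 0.0015 (A128804) and −0.10 (A339397), both outside the rule for named transcripts and added after their values were seen. No cryptochrome or phototropin, the receptors of blue light, was matched by the search terms. The COP1 machinery list of 6 also held a subunit of the COP9 signalosome (A16896), a complex that keeps such ligases active, with a log2 difference of −0.060.

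Among transcription factors downstream of light, 0 of 7 were called by limma, beside 0.95% of all transcripts. An unadjusted limma p under 0.05 was reached by 0 of 7, beside 5.5% of all transcripts, so counts of 0 come about easily here. The 7 held 5 CONSTANS-like zinc finger proteins, of the family that links day length to flowering. The other 2 were described as FAR1, of a family that acts in phytochrome A signalling in Arabidopsis. The largest difference was that of the FAR1 and F-box transcript A302613, at 1017 and 601 in unstressed and 657 and 576 in stressed pools, a log2 difference of −0.34 (adjusted p = 0.986). Its value in unstressed replicate 1 stood above the rest. A327009 (CONSTANS-like) and A42324 (FAR1) differed by −0.15 and −0.075. A further CONSTANS-like transcript, A5649, chosen after its values were seen, was at 5829 and 3759 in unstressed and at 6337 and 4081 in stressed pools, where replicate 1 was the higher pool by 1.55-fold in both groups.

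All 3 clock transcripts, described as late elongated hypocotyl (LHY), a morning-phased MYB factor of the circadian clock, had the same order of pools as A14078 and A23822. A353 was at 24736 and 7480 in unstressed and at 17268 and 7174 in stressed pools. A3704 was at 7209 and 2048 in unstressed and 5763 and 1784 in stressed pools, and A8698 at 5429 and 1938 in unstressed and 4463 and 1826 in stressed pools. The gap between the pools of a group was 2.41-fold to 3.52-fold, and the group means differed by −0.29, −0.26 and −0.18 on the log2 scale (limma adjusted p from 0.986 to 0.987). Of these, A8698 was nearest to A14078, at a distance of 0.18, the 27th nearest of 3999. A23822 lay farther from all 3, at 0.29 from A8698 (276th nearest), 0.33 from A353 (421st) and 0.46 from A3704 (1674th).

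The early light induced transcript A288, a plastid protein that protects against excess light, was at 30174 and 11377 in unstressed and at 29638 and 11411 in stressed pools. Replicate 1 was higher by 2.65-fold and 2.60-fold, and the group difference was −0.011 on the log2 scale. The photosystem II protein A73, which marks green tissue, was at 29096 to 30572 on the 4 arrays. The chlorophyll a/b binding protein A61, also of green tissue, was at 61684 to 63243. This is near the highest values on the arrays (64415 to 64925), where a gap between pools may be understated, and saturation was not tested. The xylem list held cellulose synthases, laccases and a NAC factor of secondary walls. The root list held descriptions with root, nodulin, nitrate transporter or phosphate transporter. It includes a chloroplast transporter (A26202), so it is not specific to roots. In the xylem and root lists, 0 of 40 and 0 of 15 transcripts had replicate 1 at least 1.5-fold above replicate 2 in both groups. None had it at least 1.5-fold below. Beside 1.05% and 0.475% of all transcripts, counts of 0 come about easily in lists of this size and do not set them apart. In both lists limma called none, beside 0.95% of all transcripts. An unadjusted limma p under 0.05 was found for 2 of 40 and 1 of 15, beside 5.5% of all transcripts. Mean log2 intensity per array ran from 11.40 to 11.60 in the xylem list and from 10.06 to 10.17 in the root list. Over the 5 light lists, 8 of 30 transcripts had replicate 1 at least 1.5-fold above replicate 2 in both groups. This held for 6 of 22 without the members, beside 1.05% of all transcripts. A18826, A23822 and A5649 passed narrowly, with smaller gaps of 1.51-fold, 1.53-fold and 1.55-fold. All 3 LHY transcripts are among the 8, share 1 description and may not be separate measurements. The lists were chosen with earlier results of these data known, so this count is a description with no test. Wider gaps lay outside these lists, as in a polygalacturonase (A31734, 6.95-fold in unstressed and 4.17-fold in stressed pools) and MYB131 (A6518, 5.75-fold and 4.22-fold). Both were named after their values were seen. The part of these differences between pools in the values of A14078 and A23822 was not tested.

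**Figure D4:**
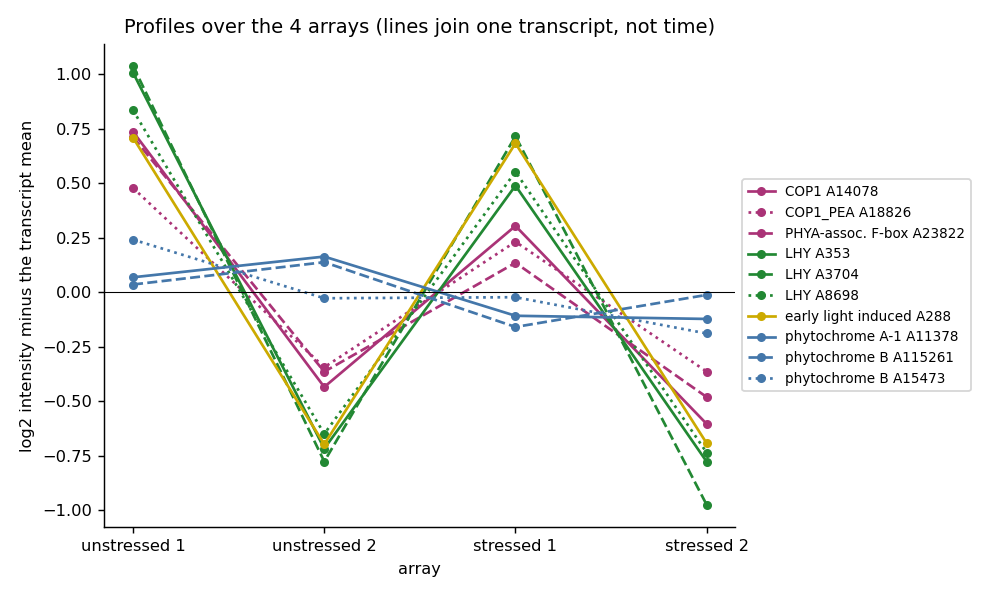
Log2 intensity minus each transcript's own mean (vertical axis) on the 4 arrays (horizontal axis), for COP1 (A14078 and A18826) and the F-box transcript A23822 in purple, LHY in green, the early light induced transcript in yellow and the 3 phytochromes among the 8 (A11378, A115261 and A15473) in blue, where lines join the values of 1 transcript and do not show time. Purple, green and yellow profiles are high in both replicate 1 pools and low in both replicate 2 pools, while the largest deviation from the mean in the 3 blue profiles is 0.24. The COP1 transcripts A239196, A99169 and A354167 are not drawn, and none of them had a gap between the pools of a group above 1.32-fold.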

How the data were processed

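Double-stranded cDNA was labelled with Cy3 and hybridised to 1-colour NimbleGen arrays, 1 pool per array, per the labels' protocols. Linear intensities, 1 for each transcript and array, were deposited by the authors, who used RMA (background correction, normalization between arrays and a summary over probes) per the submitters' processing notes, with no version or settings stated there. Each of the 8 transcripts had 18 probes, per the file headers. The series' value table held the same values (largest difference 0). Image names carry 1 common number and a position per array, so position and group cannot be told apart.

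Intensities were taken to log2 and compared with limma 3.58.1 in R 4.3.3 (lmFit, eBayes, group as the only term, 2 residual and 2.93 prior degrees of freedom), without a filter or offset, and p-values were adjusted by Benjamini-Hochberg over all 4000 transcripts, at a threshold of 0.05. The fit was tested on simulated data, with errors independent between arrays and effects larger than the differences of the 8 members. That test does not cover differences as small as theirs, or gaps shared by pools of the same number. The number of arrays limits the precision, and 2 against 2 arrays allow no permutation p below 0.333. Levels of different transcripts rest on different probes, so their RNA amounts were not compared. Percentiles of intensity and the word dim describe the measured intensity only. P-values set each group difference against the spread between these pools, which limma moderates by the spread over all transcripts. Members and lists were chosen with earlier results of these data known. Named were the 8 members, in each of 5 light lists the 3 other transcripts with the smallest p, and the 2 transcripts nearest in profile to each of the 3 members with the widest range. The alternatives left out each array, added a replicate block, quantile normalization, median centring or an offset of 50 before log2, left out the dimmest 25% of transcripts, or used an intensity trend in eBayes. No koa genome or sequence was used here.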

Additional observations from a re-analysis of the deposited data

How the results depend on the processing

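Under all 10 alternatives limma called 0 of the 8 members and 0 transcripts of the 5 light lists. The number called over all transcripts was 8 to 27 when 1 array was left out, against 38 with all arrays. Leaving out an unstressed pool gave 25 (replicate 1) or 27 (replicate 2), and leaving out a stressed pool gave 10 (replicate 1) or 8 (replicate 2). The replicate numbers were not stated to pair the pools. Deviations from the group means correlated at 0.51 between pools of the same number, across transcripts. With the replicate block, 139 transcripts were called, the 38 among them, at 1 residual degree of freedom. In that fit A23822 had an unadjusted p of 0.035 and an adjusted p of 0.36, the lowest adjusted p of the 8, and the log2 interval of A14078 narrowed to −0.60 to 0.0019 around −0.30 (adjusted p = 0.43). The SEs of the 8 were nearly alike there (0.138 to 0.150). The variance came mostly from limma's prior over all transcripts, so the narrower interval says little of the precision of A14078 alone. Members whose groups did not overlap numbered 4 with all arrays and 4 to 8 with 1 array left out (7 without unstressed replicate 2, 8 without stressed replicate 1), where fewer arrays make overlap rarer (55.8% to 77.2% of all transcripts did not overlap, against 31.5%). Signs reversed only when 1 array was left out: the log2 difference ranged from −0.89 to 0.28 for A14078, from −0.89 to 0.19 for A23822 and from −0.080 to 0.11 for A176391. The other 5 members stayed negative in every alternative run, between −0.35 and −0.078. A239196 has no value without the dimmest 25% of transcripts, because it is among them. No detection call was used, and a fold of A239196, the dimmest member, may be understated.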
